A study of Homo sapiens with 6 samples.

Results

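The STEAP family is a group of 5 human genes, STEAP1B, STEAP1, STEAP2, STEAP3 and STEAP4, taken here by gene symbol from a table of 38170 annotated features. All 5 are in the table, each once, and 4 of the 5 had enough counts to be tested, as did 19620 features in all. The values come from RNA sequencing of A549, a human lung adenocarcinoma cell line. One group of 3 libraries carries LOC401312, a long non-coding RNA that had been introduced for overexpression with piggyBac, a transposon used to carry genes into chromosomes, and the other group of 3 libraries carries an empty vector. Titles placed libraries in groups. For LOC401312 replicates 2 and 3 the genotype field reads LOC401313 and LOC401314 instead. These libraries held 92527 and 90297 STEAP1B counts, against 94628 in replicate 1. The labels give neither the promoter that drives the insert nor whether the cells were a clone or a pool, and nothing in them says that each library had its own culture. The p-values therefore measure the spread between libraries alone, and that spread may be technical.

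STEAP proteins are membrane metalloreductases. They span the membrane with a domain that holds haem and pass electrons from NADPH, by way of FAD, to ferric iron or cupric copper on the far side, which lets the reduced metal enter the cell through a transporter. STEAP3 is best known as the ferrireductase of the endosome that receives transferrin, and in mice its loss impairs iron use by red cell precursors. STEAP1 lacks the part that binds NADPH, is abundant in prostate cancer and is followed there as a cell surface antigen. STEAP2 cycles between the Golgi, endosomes and the plasma membrane. STEAP4 is known from fat tissue and from inflammation. STEAP1B is a paralogue of STEAP1 whose function is little known, and the symbol matters here because LOC401312 has no entry of its own and its transcript is annotated within the STEAP1B entry.

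Sequences are shown first because the identity of the STEAP1B row rests on them. The LOC401312 transcript of RefSeq corresponds to 1 of the 8 transcripts that the STEAP1B entry lists, ENST00000414116, a 5-exon RNA of 2592 bases on the minus strand of chromosome 7 (GRCh38, 22649960 to 22665533). Its first exon (chr7:22665345-22665533) is printed from the GENCODE release 29 transcript, with capitals for the 31 bases that are in no other listed STEAP1B transcript. These 31 bases also lie beyond the end of the STEAP1B entry in the files, 22665502, so they mark the annotated transcript and not the counted stretch.
LOC401312 exon 1: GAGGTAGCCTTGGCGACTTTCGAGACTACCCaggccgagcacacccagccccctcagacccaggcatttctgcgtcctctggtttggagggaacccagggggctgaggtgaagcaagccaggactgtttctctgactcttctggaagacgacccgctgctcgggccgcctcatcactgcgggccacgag
Of the 2592 bases of the transcript, 834 (32.2%) also lie in exons of other STEAP1B transcripts, and exon 5, with 1194 bases, lies in none. The reads of LOC401312 and of those overlapping transcripts could therefore not be counted apart.

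Between LOC401312 and the coding members of the family there was no such overlap. None of the 2562 stretches of 31 bases in LOC401312 occurred, on either strand, in the coding transcripts compared for STEAP1, STEAP2, STEAP3, STEAP4 and STEAP1B, and none occurred in a transcript of any other gene of the annotation. STEAP1 and STEAP1B, by contrast, share long runs. Of the 1283 stretches of 31 bases in STEAP1-201, 445 (34.7%) occurred in a STEAP1B transcript, the longest common run being 149 bases. The first 120 coding bases show how close the genes are, with the 4 differing bases in capitals; each stretch spans an intron, and lies between 22493801 and 22494855 (minus strand) for STEAP1B and between 90159789 and 90160840 (plus strand) for STEAP1, on chromosome 7 of GRCh38.
STEAP1B-201: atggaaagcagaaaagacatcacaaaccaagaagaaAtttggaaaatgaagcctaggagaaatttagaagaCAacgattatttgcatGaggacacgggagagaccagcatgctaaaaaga
STEAP1-201: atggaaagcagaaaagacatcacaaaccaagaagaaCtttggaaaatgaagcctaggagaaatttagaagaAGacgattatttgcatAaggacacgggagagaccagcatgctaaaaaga
Over the first 720 coding bases the pair was identical at 706 (98.1%). The comparison, made without gaps, was ended where the likeness fell, in coding sequences of 1026 bases (STEAP1B-201) and 1017 bases (STEAP1-201). STEAP1B-202, another coding transcript, was compared over its first 90 coding bases only, with 84 identical (93.3%). The sources used here do not say how reads that match both genes were assigned. The counts of STEAP1 and of the coding STEAP1B transcripts are uncertain where their sequences are shared.

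The likeness extends upstream. The 250 bases before the RefSeq start of each gene (GRCh38.p14) are printed because the levels of the genes are set beside them below, again with differing bases in capitals. They lie at chr7:22500189-22500438 on the minus strand for STEAP1B and at chr7:90154219-90154468 on the plus strand for STEAP1.
STEAP1B upstream: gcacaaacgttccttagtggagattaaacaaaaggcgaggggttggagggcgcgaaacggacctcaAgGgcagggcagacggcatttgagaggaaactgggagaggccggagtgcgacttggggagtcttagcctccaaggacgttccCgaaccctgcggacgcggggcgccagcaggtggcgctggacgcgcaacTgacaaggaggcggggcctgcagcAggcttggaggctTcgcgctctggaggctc
STEAP1 upstream: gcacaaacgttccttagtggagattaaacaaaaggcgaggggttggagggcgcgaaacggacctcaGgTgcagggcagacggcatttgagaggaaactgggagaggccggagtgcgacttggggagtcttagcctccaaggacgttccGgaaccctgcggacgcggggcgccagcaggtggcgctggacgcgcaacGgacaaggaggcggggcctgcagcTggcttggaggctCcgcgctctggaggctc
The windows matched at 244 of 250 bases (97.6%) without gaps, while the other 9 pairs of family members matched at 25.6% to 32%. The STEAP1B window held 63.6% G or C and 20 CG dinucleotides, and that of STEAP1 64.4% and 21, against medians of 58.0% and 11 over 35116 such windows. LOC401312 starts at another site, 22665533 on the same chromosome, so this window is not upstream of it.

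Within the libraries, the family members were ordered by FPKM, the fragment count scaled for transcript length and library total. In the LOC401312 libraries the STEAP1B entry came first with 181.01 to 184.16 FPKM, followed by STEAP1 with 32.09 to 33.86, STEAP3 with 10.76 to 10.82, STEAP2 with 9.49 to 9.77 and STEAP4 with 0 to 0.02. In the vector libraries STEAP1 came first with 31.47 to 33.74 FPKM, followed by STEAP3 with 12.15 to 12.72 and STEAP2 with 7.65 to 9.35, while the STEAP1B entry had 0.02 to 0.04 and STEAP4 0 to 0.02. The ranges of neighbours in this order did not overlap, except those of the STEAP1B entry and STEAP4 in vector, which met. In the vector libraries the STEAP1 entry thus held 31.47 FPKM or more and the STEAP1B entry 0.04 FPKM or less, beside upstream windows that differ at 6 bases. The assignment of reads that match both genes is not known, so these values may not be exact. That limit covers the shared part only. Of the stretches of 31 bases, 445 of 1485 (30.0%) in STEAP1B-201 and 410 of 1163 (35.3%) in STEAP1B-202 occurred in STEAP1-201. The rest of these coding transcripts differs from STEAP1-201, and the whole STEAP1B entry held 9, 11 and 23 counts in vector libraries 1 to 3. The sources used here do not state the length behind the FPKM of the STEAP1B entry. In LOC401312 library 1 it had 94628 counts and 184.16 FPKM, and the joined exons of its 8 transcripts cover 6432 bases. STEAP3 had 3915 counts and 10.82 FPKM there, with 4562 joined bases. Scaled by these lengths, counts and FPKM stood in nearly the same relation for both, so the FPKM appear to use the joined length. For STEAP1B that length is 2.48 times that of LOC401312. The FPKM of LOC401312 are then lower by that factor than its own length would give.

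Leaving the STEAP1B entry aside, the summed level of STEAP1 to STEAP4 was 52.63 to 54.17 FPKM in the LOC401312 libraries and 51.29 to 55.26 in the vector libraries. STEAP1 made up 61.0% to 62.5% of that sum in LOC401312 and 61.0% to 61.4% in vector. STEAP2 made up 17.5% to 18.6% in LOC401312 against 14.8% to 16.9% in vector, and STEAP3 20% to 20.4% against 22% to 24.2%. The shares of STEAP2 and of STEAP3 did not overlap between the groups. As parts of the same sum they are not independent, since a lower STEAP3 raises the share of STEAP2. How often the shares of other genes separate in this way was not computed. STEAP3 had 1.1 to 1.14 times the FPKM of STEAP2 in LOC401312 and 1.3 to 1.63 times in vector.

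**Figure D1:**
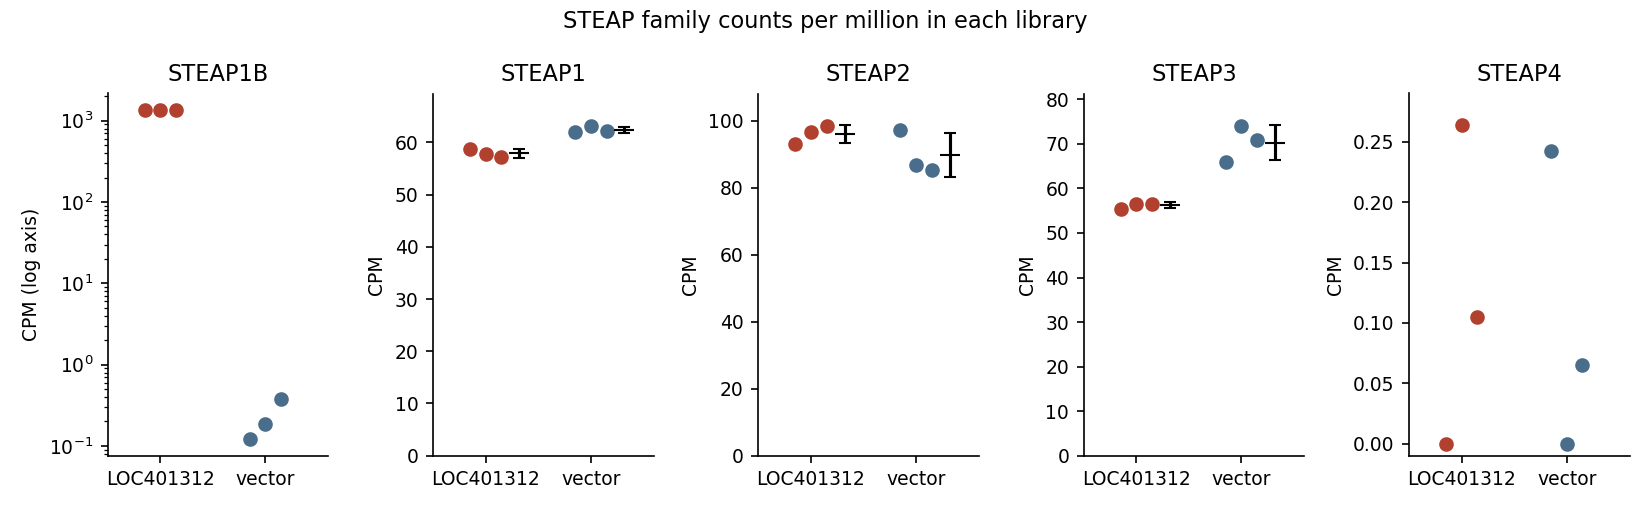
CPM (counts per 1000000 of the TMM-scaled library total) of the 5 STEAP genes, 1 point per library, with LOC401312 left of vector; bars are means ± SD (n = 3) for STEAP1, STEAP2 and STEAP3, and the STEAP1B axis is logarithmic. STEAP1B stands at 1341 to 1355 CPM in LOC401312 against 0.121 to 0.374 in vector, STEAP1 and STEAP3 lie lower in every LOC401312 library, and STEAP2 and STEAP4 overlap.

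The first comparison asked whether the introduced RNA was there. The STEAP1B entry (ENSG00000105889) held 94628, 92527 and 90297 counts in LOC401312 libraries 1 to 3, against 9, 11 and 23 in vector libraries 1 to 3. The groups did not overlap, with LOC401312 above, as was so for 14% of tested features. In bulk RNA, a larger share of cells with the transcript and more of it per cell cannot be told apart. Summed over the libraries, 277452 counts stood against 43, a ratio of rates of 6238 (exact binomial 95% interval 4631 to 8620, counting error only). The entry took 0.135% to 0.137% of all counts in LOC401312, where it ranked 56th to 60th of all features by count. Its spread was small, 1349 ± 7.6 CPM (SD, n = 3) in LOC401312, where CPM is the count per 1000000 counts of the TMM-scaled library. The log2 change was 12.57 (SE 0.14, adjusted p = 1.63e-11) and lay between 12.22 and 13.13 when single libraries were left out, the upper value without vector replicate 3, which held the most STEAP1B counts of its group.

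STEAP1B-AS1, the antisense RNA of the locus, was found by its start position under a clone name, and does not overlap LOC401312. It had 33, 0 and 18 counts in LOC401312 and 0, 4 and 17 in vector, with groups that overlapped and a log2 change of 1.12 (SE 1.31, adjusted p = 0.69). The 3 features most like STEAP1B over the 6 libraries, by the root mean square difference of log2 CPM centred on each feature's mean, were CGA, SLC6A14 and PTP4A1. None was close, with differences of 4.75, 4.98 and 5.19 on the log2 scale among 11798 features averaging 4 CPM or more. CGA, the common subunit of the glycoprotein hormones, averaged 36.7 ± 31.5 CPM in LOC401312, where replicates 2 and 3 carried placental transcripts, and 0.533 ± 0.308 in vector (SD, n = 3 each).

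Of the 4 tested members, STEAP1B rose, STEAP3 fell, and STEAP1 and STEAP2 did not pass the threshold of an adjusted p of 0.05. For comparison, 8.72% of all tested features passed, 4.13% higher and 4.58% lower. The split depended on the scaling, with 5.09% higher and 3.84% lower (edgeR) on library totals alone, and 8.36% higher and 1.61% lower in the deposited FPKM values (limma). The STEAP1B row holds the introduced RNA, so its rise and its separation were set by the design. Apart from it, the CPM groups did not overlap for STEAP1 and STEAP3 and overlapped for STEAP2, against 27.9% of tested features without overlap. In FPKM the groups overlapped for STEAP1 and did not for STEAP2. The FPKM values were shifted upwards in LOC401312, by a median log2 difference of 0.109 over features averaging 5 FPKM or more. The share of all features without overlap in FPKM was not computed.

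STEAP3 (ENSG00000115107), the endosomal ferrireductase, lies on chromosome 2 at 119223831 to 119265652, plus strand, in the files' coordinates (GRCh38). It held 3915, 3862 and 3780 counts in LOC401312 libraries 1 to 3, against 4906, 4422 and 4366 in vector libraries 1 to 3. In CPM the LOC401312 libraries stood at 55.5, 56.6 and 56.6 and the vector libraries at 66.0, 73.9 and 70.9. All LOC401312 values lay below all vector values, as they did for 13.9% of tested features, and vector replicate 1 was the lowest of its group. STEAP3 fell to 0.8-fold, a log2 change of -0.32 (SE 0.05, 95% interval -0.44 to -0.21, adjusted p = 0.00385). A two-sided exact permutation test of its CPM had p = 0.1, the smallest possible over the 20 ways to place 3 of 6 libraries. Leaving out any single library kept the call, with log2 changes from -0.37 to -0.28. In the deposited FPKM values the change was -0.19 (limma, adjusted p = 0.033). The median shift of those values, over features averaging 5 FPKM or more, was 0.109.

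Many genes of chromosome 2 were lower together with STEAP3. Among the 780 of them that averaged 4 CPM or more, 342 (43.8%) were called lower and 13 higher, and their median log2 change was -0.23, against 0.01 for 11018 such genes of other chromosomes. STEAP3 lay below that median, but 209 of the 780 (26.8%) had a more negative change. With the median of each chromosome removed from each library, STEAP3 was at -0.09 (adjusted p = 0.36), so the call did not hold relative to its chromosome. Within 500 kb of STEAP3 were 14 features, 7 of them tested, of which 2 fell, none rose and 6 had a negative change. DBI, the acyl-CoA binding protein gene, fell by 0.38 (SE 0.05, adjusted p = 0.000888) and C2orf76 by 0.68 (SE 0.15, adjusted p = 0.0194). C2orf76 lost its call without vector replicate 3 or any 1 LOC401312 library. Relative to the median of chromosome 2 neither was called, with DBI at -0.15 (adjusted p = 0.0972) and C2orf76 at -0.45 (adjusted p = 0.115). STEAP3-AS1, which overlaps STEAP3 on the other strand, had 24, 32 and 27 counts in LOC401312 and 61, 24 and 24 in vector (log2 change -0.42, SE 0.45, adjusted p = 0.661). The sources used here give no strand setting for the counting, and without strand its reads and those of STEAP3 cannot be told apart.

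**Figure D2:**
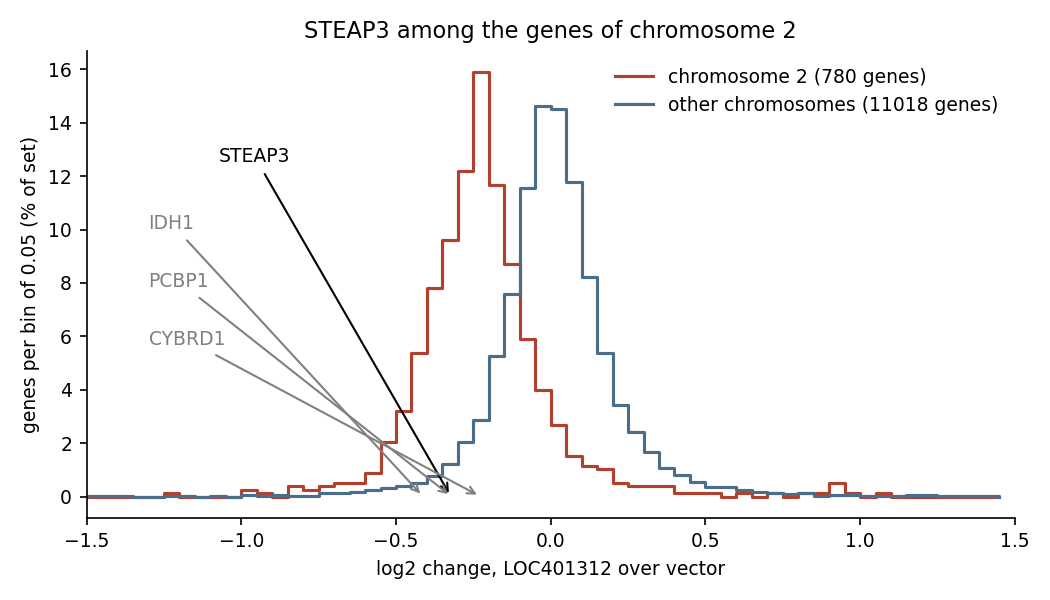
Log2 change (LOC401312 over vector, bins of 0.05) of 780 chromosome 2 genes and 11018 genes of other chromosomes, each averaging 4 CPM or more, as a percent of each set. STEAP3 at -0.32, IDH1 at -0.41, PCBP1 at -0.32 and CYBRD1 at -0.23 are marked on the axis and lie within the bulk of chromosome 2, whose median is -0.23.

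The 3 features whose profile was most like that of STEAP3 were TSKU, PCBP1 and DGUOK, with root mean square differences of 0.02 each on the log2 scale. TSKU, a secreted leucine-rich protein gene of chromosome 11, averaged 323 ± 1.48 CPM in LOC401312 and 405 ± 19.8 in vector (SD, n = 3 each). PCBP1, an iron chaperone that loads ferritin, and DGUOK, a mitochondrial deoxyguanosine kinase, both lie on chromosome 2, and PCBP1 averaged 293 ± 1.4 CPM in LOC401312 and 366 ± 13.3 in vector (SD, n = 3 each). PCBP1 is also in the list of iron uptake genes described below.

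STEAP1 (ENSG00000164647) and STEAP2 (ENSG00000157214) lie side by side on the long arm of chromosome 7, at 90154456 to 90164827 and 90167590 to 90238137, both on the plus strand and 2763 bases apart. STEAP1 held 4149, 3942 and 3817 counts in LOC401312 libraries 1 to 3, against 4611, 3772 and 3821 in vector libraries 1 to 3. In CPM this was 58.8, 57.7 and 57.1 in LOC401312 and 62.1, 63.1 and 62.1 in vector. Every LOC401312 value lay below every vector value, but the difference was small and did not pass over all features, with a log2 change of -0.11 (SE 0.04, 95% interval -0.2 to -0.02, adjusted p = 0.153). In the deposited FPKM values the sign turned, to 0.02 (limma, adjusted p = 0.819), which is below their shift of 0.109. The features most like STEAP1 were UBAC2, PTPRJ and CCT8, on chromosomes 13, 11 and 21, with root mean square differences of 0.006, 0.01 and 0.01. None of the 3 passed the threshold, but they were picked for this likeness, so their small changes follow from the choice.

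STEAP2 held 6569, 6604 and 6563 counts in LOC401312 libraries 1 to 3, against 7217, 5186 and 5249 in vector libraries 1 to 3. Its CPM was 93.1, 96.7 and 98.3 in LOC401312 and 97.1, 86.7 and 85.3 in vector. Vector replicate 1 stood with the LOC401312 libraries and the other vector replicates below them. The log2 change of 0.10 (SE 0.06, 95% interval -0.03 to 0.22, adjusted p = 0.346) did not pass. Without vector replicate 1 it was 0.16 (adjusted p = 0.0536). The deposited FPKM values gave 0.22 (limma, adjusted p = 0.111), in values with a median shift of 0.109. RALGAPB, ABL2 and SYNJ2BP, on chromosomes 20, 1 and 14, were the features most like it, each with a root mean square difference of 0.01 to 0.02. None of them passed, but their small changes likewise follow from the choice by likeness.

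**Figure D3:**
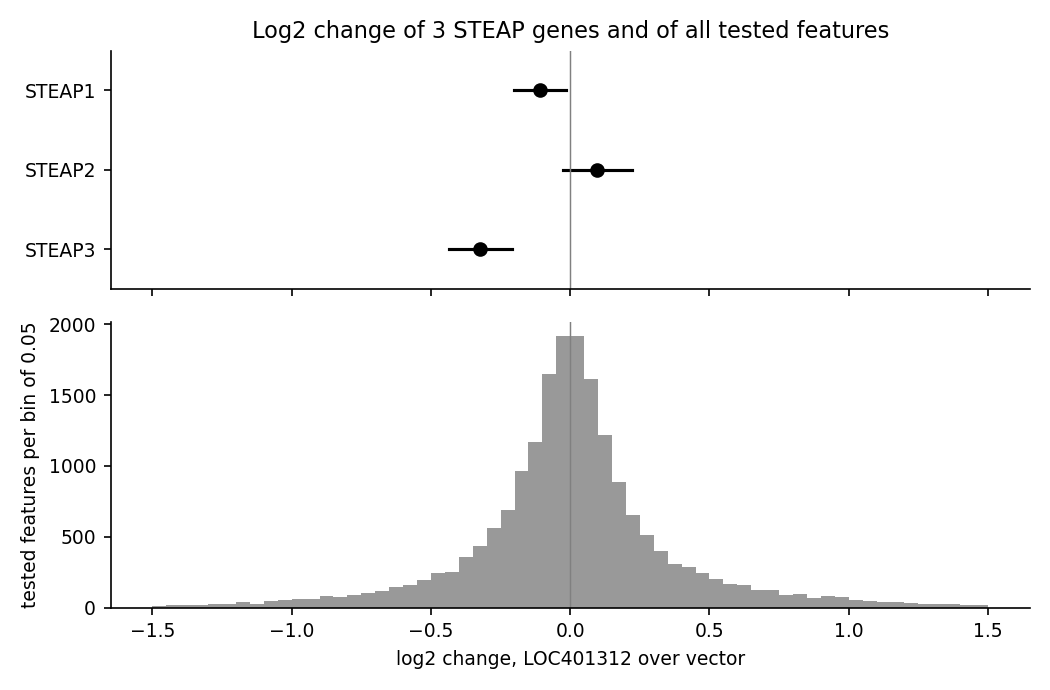
Top, log2 change (LOC401312 over vector) of STEAP1, STEAP2 and STEAP3 with 95% intervals from the edgeR fit; bottom, the same quantity for tested features in bins of 0.05. STEAP3 at -0.32 lies apart from 0, the STEAP1 interval ends at -0.02, that of STEAP2 spans 0, and STEAP1B at 12.57 is beyond the axis.

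Since both genes are counted in the same libraries, the ratio of STEAP2 to STEAP1 counts needs no scaling. It was 1.583, 1.675 and 1.719 in LOC401312 libraries 1 to 3, against 1.565, 1.375 and 1.374 in vector libraries 1 to 3. The groups did not overlap, although the lowest LOC401312 and the highest vector ratio lay close. How often the ratios of other gene pairs separate in this way was not computed. The STEAP1 counts also carry the uncertainty of reads that match STEAP1B. On the log2 scale the means were 0.73 ± 0.06 in LOC401312 and 0.52 ± 0.11 in vector (SD, n = 3 each), a difference of 0.21 (exact two-sided permutation test, p = 0.1, the smallest possible). Besides the pair itself, 11 features lay within 500 kb of STEAP1 or STEAP2, 5 of which were tested, with a median log2 change of 0.17. CLDN12, a claudin of epithelial junctions, was at 0.17 (SE 0.06, adjusted p = 0.1), GTPBP10, a GTPase of the mitochondrial ribosome, at 0.12 (SE 0.08, adjusted p = 0.425) and CFAP69 at -0.14 (SE 0.23, adjusted p = 0.799). CDK14, a cyclin-dependent kinase, rose but was scarce, with 0.564 ± 0.16 CPM in LOC401312 and 0.0693 ± 0.0602 in vector (SD, n = 3 each; adjusted p = 0.0443), and lost that call without any 1 of the 6 libraries. FAM237B was scarce too, with 24, 12 and 4 counts in LOC401312 and 0, 0 and 11 in vector (log2 change 1.70, SE 1.26, adjusted p = 0.491). CDK14 and FAM237B had the largest changes of the 5 tested neighbours and raised their median. STEAP2-AS1, on the other strand, had 4, 11 and 0 counts in LOC401312 and 6, 4 and 0 in vector and was too low to test.

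**Figure D4:**
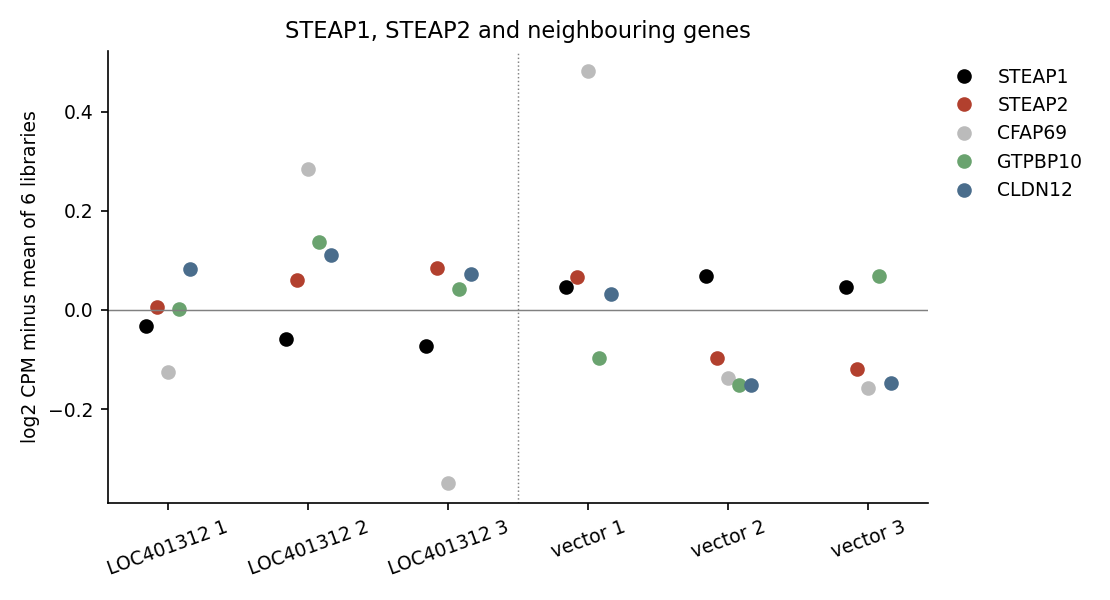
Log2 CPM of STEAP1, STEAP2 and 3 neighbouring genes in each library, minus the gene's mean over the 6 libraries, LOC401312 libraries left of vector. STEAP2 is at 0.067 in vector replicate 1 and at -0.097 and -0.12 in vector replicates 2 and 3, while STEAP1 is above 0 in all 3 vector libraries and below 0 in all LOC401312 libraries.

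STEAP4 (ENSG00000127954; chromosome 7, 88270892 to 88306891, minus strand), the member known from fat tissue and inflammation, was barely counted. It had 0, 18 and 7 counts in LOC401312 libraries 1 to 3, against 18, 0 and 4 in vector libraries 1 to 3. Each group had a library at 0, which allows up to 3 counts, or 0.0427 CPM before TMM scaling in LOC401312 replicate 1 and 0.0492 in vector replicate 2, and a library at 18. Its 25 counts in LOC401312 against 22 in vector gave a ratio of rates of 1.1 (exact binomial 95% interval 0.594 to 2.04, counting error only), and no difference was detectable at this depth. The ratio was 3.77 without vector replicate 1 and 0.461 without LOC401312 replicate 2. Of its 8 neighbours within 500 kb, 4 were tested and none passed, with adjusted p from 0.339 for ADAM22 to 0.843 for SRI.

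Some libraries carried transcripts best known from other cell types. Whether they came from other cells or from the A549 cells was not tested. For the calls of markers given here, the share of all tested features was 4.13% higher and 4.58% lower. The 8 placental markers summed to 1.35, 89.9 and 83.6 CPM in LOC401312 libraries 1 to 3 and to 0.686 to 1.54 CPM in vector. Of these, 5 of 5 tested were called higher, with PAGE4 and GCM1 at 0 in all vector libraries. In the deposited FPKM values only 1 placental marker, KISS1, was called higher (limma). CGA lost its call without LOC401312 replicate 2 or 3 or any 1 vector library. The 4 haematopoietic markers summed to 0.17 to 0.674 CPM in LOC401312, with CD3E at 0, and to 6.38, 0.251 and 0.504 CPM in vector libraries 1 to 3. STEAP4 had 18 counts in LOC401312 replicate 2 and in vector replicate 1, the libraries with the highest placental and the highest haematopoietic sum. It had 7 in LOC401312 replicate 3, whose placental sum was nearly as high. Vector replicate 3, with 4 STEAP4 counts, had the highest prostate sum, at 17.3 CPM, and was highest for the prostate transcript KLK3, at 3.93 CPM. The part of these transcripts in the STEAP4 counts was not tested. Library totals were 65823845 to 70202062 counts in LOC401312 and 60971105 to 73994619 in vector. Of the 9 epithelial and lung markers, 7 were tested, 3 rose and none fell, with a median of 0.26. Those that rose were CDH1, the epithelial cadherin, by 0.48 (SE 0.04, adjusted p = 0.000131), the keratin KRT19 by 0.26 (SE 0.05, adjusted p = 0.0077) and the protease NAPSA by 1.02 (SE 0.22, adjusted p = 0.0183). NAPSA lost its call without vector replicate 2 or any 1 LOC401312 library. KRT8 and KRT18 were at 4925 and 3361 CPM in LOC401312 and 4836 and 3298 in vector, and the lung factor NKX2-1 and the surfactant gene SFTPB averaged 0.13 CPM or less in both groups. The 4 markers of the A549 line summed to 8560 to 8810 CPM in LOC401312 and 9610 to 10200 in vector, and 3 of the 4 fell. The 9 urothelial markers summed to 19.1 to 21.6 CPM in LOC401312 and 27.6 to 29.7 in vector, the 7 fibroblast and endothelial markers to 21.6 to 23.2 and 37.2 to 49.3, and the 5 prostate markers to 9.89 to 12.2 and 9.66 to 17.3. Of these last lists, 3 of 8 tested urothelial, 2 of 7 fibroblast and endothelial and 0 of 2 prostate markers fell, and none rose. Their part in the STEAP results was not tested.

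The remaining comparisons took the genes around the STEAP reaction: other reductases, the carriers and stores of iron and copper, and the supply of NADPH and FAD. Beside each count, the share of all tested features was 4.13% higher and 4.58% lower, and the median over them was 0.00. Of 15 genes for reductases of the cytochrome b561 and NADPH oxidase families, 13 were tested, 1 rose and 1 fell, with a median of -0.09. CYB561, a transmembrane ascorbate-dependent reductase, rose by 0.26 (SE 0.06, adjusted p = 0.0245), to 58.5 ± 3.44 CPM in LOC401312, against 48.8 ± 2.79 in vector (SD, n = 3 each). CYBRD1, the ferric reductase of the gut surface, fell by 0.23 (SE 0.06, adjusted p = 0.0356), with 75.1 ± 5.81 CPM in LOC401312 and 87.9 ± 0.752 in vector. With the median of its chromosome, 2, removed, CYBRD1 was at 0.00 (adjusted p = 0.992). CYB561 lost its call without vector replicate 1 or 3 or LOC401312 replicate 2 or 3 (adjusted p up to 0.122), and CYBRD1 without any library but LOC401312 replicate 3 (up to 0.124).

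Of 13 genes of iron uptake, all were tested, 2 rose, 1 fell and 10 did not pass, with a median of -0.04. SLC39A8, a zinc, manganese and iron transporter, rose most clearly, by 0.64 (SE 0.04, adjusted p = 1.62e-05), to 152 ± 3.37 CPM in LOC401312 against 97.4 ± 0.726 in vector (SD, n = 3 each). SLC11A2, the transporter that carries the iron reduced by STEAP3 out of the endosome, rose by 0.22 (SE 0.05, adjusted p = 0.0143). Once the median of chromosome 12, where it lies, was removed, it was at 0.11 (adjusted p = 0.222). PCBP1 fell by 0.32 (SE 0.04, adjusted p = 0.000814). Relative to the median of chromosome 2 it stood at -0.09 (adjusted p = 0.213). The transferrin receptor TFRC, whose endosome holds STEAP3, was at 0.12 (SE 0.03, adjusted p = 0.0631). SLC11A2 lost its call without vector replicate 2 or any 1 LOC401312 library (adjusted p up to 0.0674). In the deposited FPKM values 5 of the 13 were called higher and 1 lower, in a fit that called 8.36% of all features higher and 1.61% lower.

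Of 10 genes of iron storage, export and sensing, 7 were tested, 1 rose and 2 fell, with a median of 0.11. Both chains of ferritin, the iron store of the cell, fell: FTH1 by 0.26 (SE 0.05, adjusted p = 0.0107) and FTL by 0.24 (SE 0.05, adjusted p = 0.00904). FTH1 averaged 5723 ± 65.7 CPM in LOC401312 and 6846 ± 554 in vector, and FTL 8643 ± 65.9 CPM in LOC401312 and 10220 ± 734 in vector (SD, n = 3 each). ACO1, which encodes an iron-responsive RNA-binding protein that is also the cytosolic aconitase, rose by 0.27 (SE 0.04, adjusted p = 0.00409), and IREB2, its paralogue, was at 0.17 (SE 0.05, adjusted p = 0.0502). FTH1 lost its call without LOC401312 replicate 1 or vector replicate 3 (adjusted p up to 0.0569). In the deposited FPKM values FTH1 was at -0.13 (limma, adjusted p = 0.162) and FTL at -0.11 (0.291), neither called, while ACO1 was at 0.40 (0.00287). HAMP was at 0 in all libraries and FTMT was not analysed here.

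Of 11 copper genes, 1 fell and none rose, with a median of 0.025. That gene was ATP7A, a copper-exporting ATPase, at -0.19 (SE 0.05, adjusted p = 0.0486), which lost its call without any 1 of the 6 libraries. SLC31A1, the importer of reduced copper, was at 0.04 (SE 0.05, adjusted p = 0.683). Of 7 genes of NADPH and FAD supply, 1 rose and 2 fell, with a median of -0.05. IDH1, the cytosolic NADPH-making isocitrate dehydrogenase, fell by 0.41 (SE 0.04, adjusted p = 0.000114). Relative to the median of chromosome 2 it stood at -0.18 (adjusted p = 0.0121). PGD, a dehydrogenase of the pentose phosphate pathway, fell by 0.27 (SE 0.04, adjusted p = 0.00143), and NADK, which makes NADP from NAD, rose by 0.20 (SE 0.05, adjusted p = 0.0222). In the deposited FPKM values PGD was at -0.14 (limma, adjusted p = 0.0779) and not called. The NADK call held without vector replicate 1 and was lost on leaving out each of the other 5 libraries, with adjusted p of 0.119 or less.

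**Figure D5:**
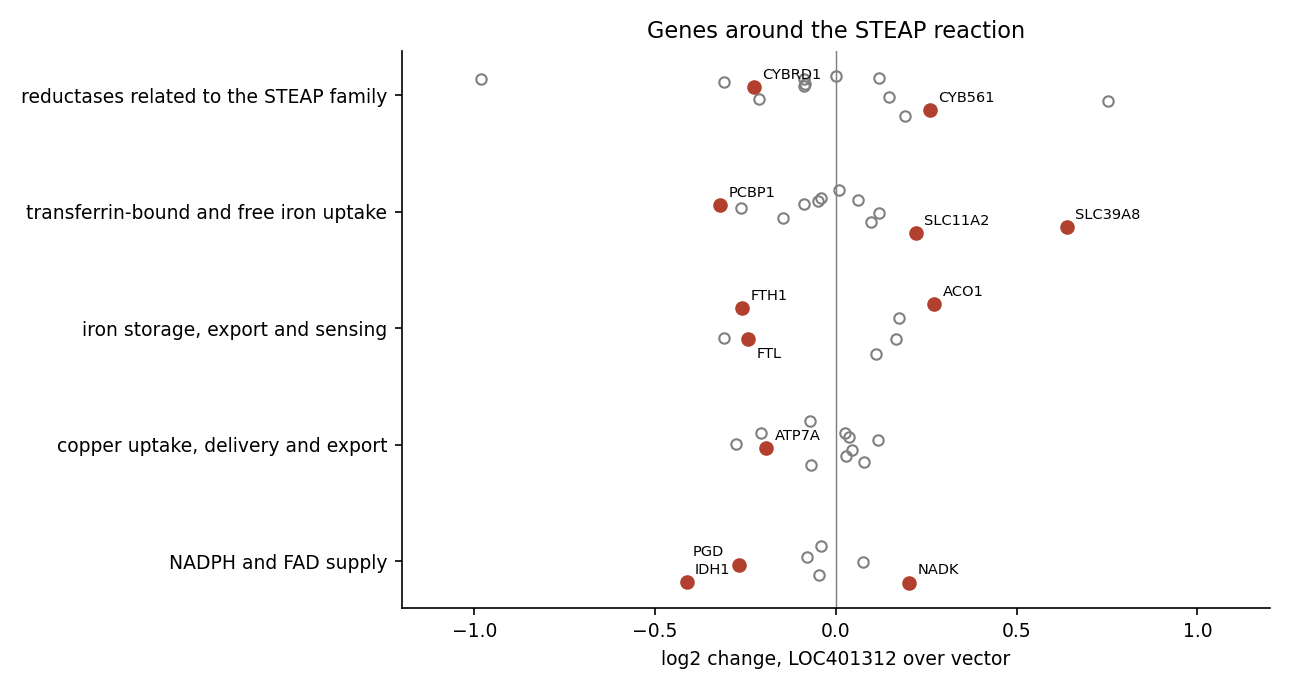
Log2 change (LOC401312 over vector) of each tested gene in 5 lists around the STEAP reaction; filled points passed an adjusted p of 0.05 and are named, open points did not. SLC39A8 is the highest of the named genes at 0.64, the ferritin chains and PGD lie between -0.27 and -0.24, and TF at -3.05, which did not pass (adjusted p = 0.0782), is beyond the axis.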

How the data were processed

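Total RNA libraries, 3 with LOC401312 and 3 with vector, were read from 1 table. The authors deposited whole-number counts per gene, not normalized, and FPKM values, which scale fragments by length and total, per the file headers. Cutadapt 1.9, FastQC and the build GRCh38 (hg38) are named in the submitters' processing notes; the aligner, the counter and the strandedness were not given in the sources used here. Counts were fitted over all features with edgeR 4.0.16 (R 4.3.3; filterByExpr, TMM, quasi-likelihood test, group as the only term, Benjamini-Hochberg, threshold 0.05), tested on simulated data. SE is the log2 change over the square root of F. DESeq2 1.42.0, limma 3.58.1 on log2(FPKM + 0.1), other scalings and filters, the replicate block and left-out libraries were alternatives. Replicates of 1 group were not the same library deposited again (chi-square over its degrees of freedom was 13.96 to 23.15), so each counted once. Members, lists and rules were chosen with earlier results of these data known: the members, every passing gene of each list and of the 500 kb windows, and the 3 nearest profiles; other genes were chosen after their values were seen. A gene of the NADPH list and a gene of the prostate list are not reported here, and their lists' values were computed without them. Sequences are from RefSeq promoters (GRCh38.p14) and GENCODE release 29 transcripts.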

Additional observations from a re-analysis of the deposited data

How the results depend on the processing

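Relative to 1710 features past the threshold in the edgeR fit, 1023 passed with limma on log2(FPKM + 0.1) without a filter on low values, 1088 with the replicate block and 175 without LOC401312 replicates 2 and 3; leaving out 1 library gave 832 to 2005 (1018, 832 and 959 without LOC401312 replicates 1, 2 and 3, and 1125 and 914 without vector replicates 2 and 3). The 1710 were 811 higher and 899 lower, against 999 and 754 on library totals alone and 1599 and 308 with limma on log2(FPKM + 0.1). The replicate block changed the call of no STEAP gene, with adjusted p = 0.0172 for STEAP3. The same-numbered libraries did not deviate together (correlations across genes of -0.154, -0.032 and -0.057), and no library correlated best with its own number. With so few libraries this cannot show whether same-numbered libraries shared a batch. The main fit did not pair libraries by number. STEAP1, which was not called, turned from -0.11 to 0.018, 0.017 and 0.018 with limma on log2(FPKM + 0.1), on log2(FPKM + 1) and without a filter, in values shifted by 0.109. STEAP3 was at -0.094 and lost its call with chromosome medians removed, and at -0.339 (adjusted p = 0.17) without LOC401312 replicates 2 and 3, a fit with a lone LOC401312 library assumed to vary like the vector libraries. The STEAP4 rate ratio was 0 without those libraries, and 0.461 to 3.77 when 1 library was left out. STEAP1B was called under every alternative run, and STEAP2 under none. STEAP4 had no value where its counts were filtered out. Depth limits STEAP4 and the antisense RNAs, at 61 counts per library or fewer.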
